A study of Mus musculus with 10 samples.

Results

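The messenger RNA of heart ventricles lacking Trbp was compared with that of wild-type ventricles, gene by gene. The genes picked for description lie outside short lists of sarcomere and proliferation genes. Transcription factors that regulate the cell cycle, such as E2F factors, are included. Trbp is encoded by the mouse gene Tarbp2 and binds double-stranded RNA as a partner of Dicer, which processes miRNA precursors. The comparison used 4 of the 10 libraries of the study: 2 from C57BL/6 mice with a conditional knockout of Trbp (Trbp-cKO) and 2 from wild-type C57BL/6 mice (WT), all at 2 weeks of age. The remaining 6 libraries hold small RNA and were not used. The labels give neither the Cre line that deletes Trbp, nor the cells or the time in which it acts, nor whether the WT mice carry floxed alleles. Nor do they say whether replicates are separate animals, so that p-values measure only the spread between these libraries.

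Of 23334 genes in the table, 13607 were expressed highly enough to test. Members were sorted by symbol family into 4 classes: 682 transcription factors (435 tested), 750 receptors (412 tested), 818 transporters and channels (492 tested) and 903 secreted proteins (425 tested). A class says what kind of protein a family encodes, and single members can depart from it. Libraries held 13137085 and 13520927 counts over genes in Trbp-cKO and 13092978 and 10135841 in WT. Levels are in CPM, a gene's count relative to its library's total scaled for composition, and are given for replicate 1 and then replicate 2 of a genotype. Fold changes are Trbp-cKO over WT, with the standard error (SE) on the log2 scale, and a gene is said to have risen or fallen where its edgeR quasi-likelihood test had a Benjamini-Hochberg adjusted p under 0.05 over all tested genes. The genes described are the largest called rises and falls of each class whose mean reached 2 CPM and whose genotypes did not overlap. In such genes both libraries of one genotype lay above both of the other because the choice required it, which is no separate result. In genes described for other reasons it is no separate result either. Genes that were not called, such as Clock, Cry1 and Eng, also showed it, and its share over all genes is not given. For some families the call with the smallest p is described as well. Other genes were added after their values were seen, to follow a pathway or a pair of related proteins.

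As background, a miRNA guides Argonaute proteins to matching sites in messenger RNAs and lowers their stability and translation. In the weeks after birth the mouse heart leaves the cell cycle, and its ion channels, metabolism and matrix mature. Transcription factors set which genes are read, receptors take up signals from ligands, transporters and channels move solutes and charge across membranes, and secreted proteins form the matrix or act as signals.

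The targeted transcript checked the labels. Tarbp2 (NM_009319) stood at 3.88 and 3.89 CPM in Trbp-cKO, against 12.7 and 11.6 CPM in WT, which is 3.12-fold lower (log2 fold change -1.64 ± 0.17 SE, edgeR adjusted p = 0.000645). Both Trbp-cKO libraries lay below both WT libraries. The labels do not say whether counting used the strand of reads, and 33 of the 61 genes picked by the naming rule overlap another annotated gene, so reads of both cannot be told apart. Tarbp2 overlaps Map3k12, Hopx overlaps its antisense gene Hopxos, Sox6 overlaps Sox6os, and Ntn1 overlaps Mir6406. Slc17a7 overlaps Mir7055, Scgb1c1 overlaps C330022C24Rik, and Kcnd3 overlaps Kcnd3os. Some further partners are given beside their genes and others are not listed. A gene described without a partner can therefore still overlap another.

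The 10 ventricular cardiomyocyte markers summed to 112080 and 117359 CPM in Trbp-cKO and to 101495 and 100221 CPM in WT, with 4 members higher and 1 lower. The 8 atrial markers summed to 929 and 1386 CPM in Trbp-cKO and to 737 and 747 CPM in WT. Bmp10 was at 0 in every library, Myl7 and Sln were too low to test, and none of the 5 tested members was called. Fibroblast markers summed to 2577 and 2830 CPM in Trbp-cKO and to 2384 and 2432 CPM in WT, with 1 of 10 called (Gsn, which rose), endothelial markers to 2418 and 2382 CPM in Trbp-cKO and to 2303 and 2309 CPM in WT, with 1 of 10 called, and leukocyte markers to 237 and 247 CPM in Trbp-cKO and to 231 and 250.1 CPM in WT, with none of 10 called. Erythroid markers were lower, at 842 and 995 CPM in Trbp-cKO against 1041 and 1270 CPM in WT, and 4 of 7 tested fell. Among these falls, Hbb-b1 and Hbb-b2 had equal levels in all libraries but WT replicate 2 (114.3 and 114.1 CPM there). They may therefore not be separate falls. Hbb-bs, the highest of the tested members, was not called (edgeR adjusted p = 0.487). Of 20 proliferation genes 19 fell, their sum standing at 87.3 and 97.7 CPM in Trbp-cKO against 252 and 281 CPM in WT. In bulk tissue, fewer cells of a type and less RNA per cell cannot be told apart. The part of cell makeup in the results below was not tested.

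Over all tested genes 1277 were called, or 9.38%, of which 705 (5.18%) were higher and 572 (4.2%) lower in Trbp-cKO. Transporters and channels had the highest share of the 4 classes, with 47 higher and 21 lower of 492 (13.8%), followed by secreted proteins with 28 higher and 25 lower of 425 (12.5%). Receptors, with 29 higher and 11 lower of 412 (9.71%), and transcription factors, with 30 higher and 8 lower of 435 (8.74%), were called about as often as all genes. Most calls were small: 10 transporters were more than 2-fold higher and 10 more than 2-fold lower, against 5 and 5 transcription factors, 4 and 1 receptors, and 4 and 4 secreted proteins. Median log2 fold changes were 0.05 for transporters, 0.01 for secreted proteins, 0.06 for receptors and 0.07 for transcription factors, beside 0.00016 for all tested genes. The direction of the small changes leaned on the scaling. With libraries scaled by total counts, which moved the median of all genes to -0.04 on the log2 scale, the calls were 24 higher and 11 lower transcription factors, 22 and 14 receptors, 42 and 25 transporters, and 23 and 32 secreted proteins. The counts also rested on both WT libraries: without WT replicate 1 or 2, 126 or 139 genes were higher and 125 or 129 lower, and the class counts were 8 or 12 transcription factors, 7 or 7 receptors, 23 or 25 transporters and 10 or 10 secreted proteins. A fit that leaves out a library keeps 1 library of that genotype, assumed to vary like the 2 libraries of the other, and 1 residual degree of freedom. In such fits the log2 fold changes of the called genes moved by a median of 0.0457 to 0.0541, none changed sign, and 5 to 20 of them moved by more than 1.5-fold. A call said below to end in such a fit is therefore not shown to be a smaller change.

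**Figure D1:**
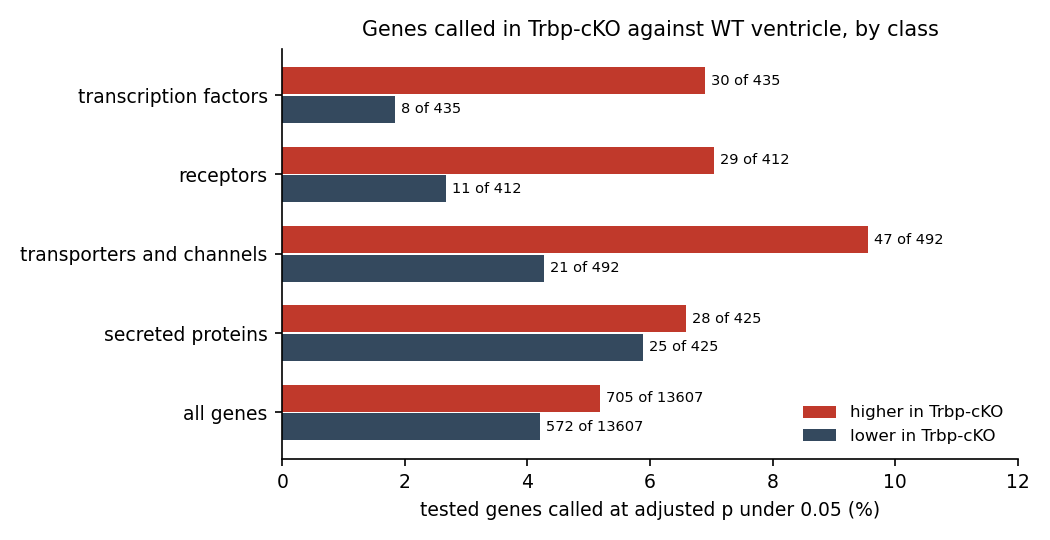
Share of tested genes called higher (red) and lower (dark) in Trbp-cKO than in WT ventricle, in percent, for each class and for all 13607 tested genes, with the counts beside the bars. The bar for higher transporters and channels, 47 of 492, is the longest, and that for lower transcription factors, 8 of 435, the shortest.

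Sox6, Hlf and Tfdp2 rose more than 2-fold and were called in every fit tried. Sox6 (chr7:115470872-116040776), a factor that represses slow-fibre genes in skeletal muscle, had 113 and 122 CPM in Trbp-cKO and 39.4 and 40.5 CPM in WT. The replicates of each genotype lay close together, and the log2 fold change was 1.56 ± 0.07 SE (edgeR adjusted p = 5.16e-06). Hlf, a factor of the PAR bZIP family whose members follow the circadian clock, had 145 and 139 CPM in Trbp-cKO and 68.9 and 66.8 CPM in WT (1.07 ± 0.07 SE, edgeR adjusted p = 2.99e-05). Tfdp2, a DP protein that pairs with E2F factors to bind DNA, had 245 and 218 CPM in Trbp-cKO and 107 and 116 CPM in WT (1.06 ± 0.08 SE, edgeR adjusted p = 8.57e-05).

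Bcl11b, a zinc-finger factor of T-cell and neuronal development, stood at 9.62 and 7.34 CPM in Trbp-cKO, against 3.62 and 4.85 CPM in WT. Zbtb42, a BTB zinc-finger factor, stood at 20.6 and 17.9 CPM in Trbp-cKO, against 8.91 and 11 CPM in WT. Tbx18, a T-box factor of the epicardium and the sinus node, stood at 21.7 and 14.4 CPM in Trbp-cKO, against 8.99 and 10.2 CPM in WT. The genotypes did not overlap in these 3 genes, whose log2 fold changes were 1.01 ± 0.22, 0.96 ± 0.16 and 0.91 ± 0.21 SE (edgeR adjusted p = 0.0211, 0.00561 and 0.033). The 7 markers of epicardium and mesothelium summed to 36.2 and 37.1 CPM in Trbp-cKO and to 39.3 and 54.5 CPM in WT, with no member called. Pou3f2, a POU-domain factor known from neurons, was picked after its values were seen: it had 26 and 19 counts in Trbp-cKO and 0 in both WT libraries, at least 6.64-fold higher over a floor of 3 counts per WT library (edgeR adjusted p = 0.00394). Without WT replicate 1 the calls of Bcl11b, Zbtb42, Tbx18 and Pou3f2 ended (edgeR adjusted p 0.0655 to 0.245), and those of Bcl11b, Tbx18 and Pou3f2 without WT replicate 2 (0.0513 to 0.181). Bcl11b and Tbx18 also ended without Trbp-cKO replicate 1 (0.0993 and 0.101), and Bcl11b with DESeq2 (adjusted p = 0.0797).

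**Figure D2:**
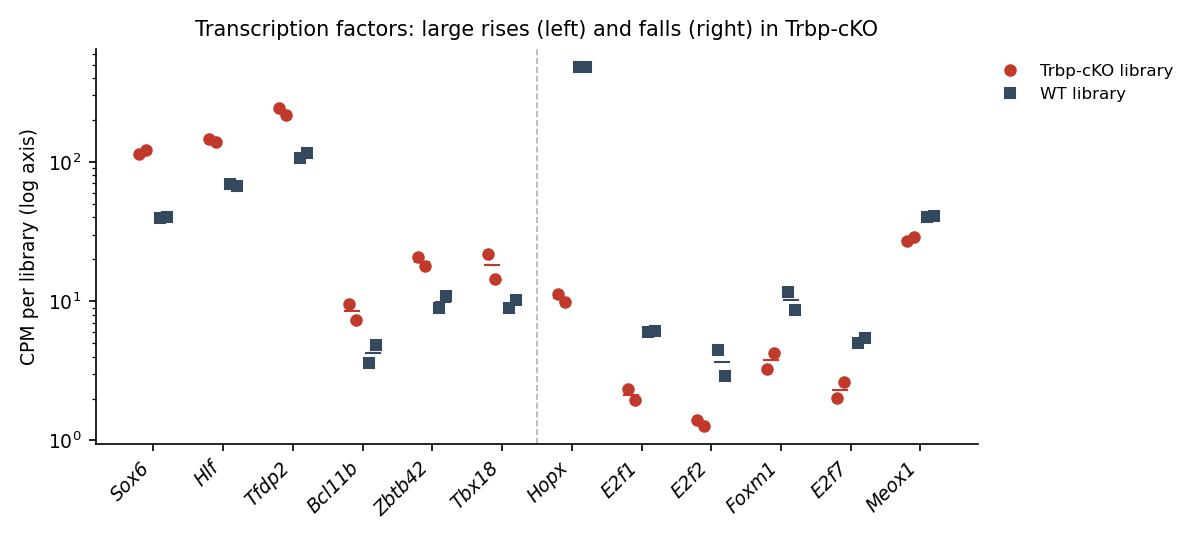
CPM (log axis) in each Trbp-cKO library (red circles) and each WT library (dark squares) for the called transcription factors of at least 2 CPM on average with the 6 largest rises, left of the dashed line, and the 6 largest falls; short lines are genotype means. Hopx shows the widest gap, at 10.5 CPM in Trbp-cKO and 480.5 CPM in WT on average.

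E2F factors switch genes of DNA replication on as cells enter S phase, and some members repress the same genes later. In the family of cell-cycle and E2F regulators 14 members were tested, of which 5 fell and 1, Tfdp2, rose (42.9%, beside 9.38% of all genes). Their median log2 fold change was -0.61. The part of the lower proliferation markers given above in these falls was not tested. E2f1, an activating E2F, had 2.33 and 1.95 CPM in Trbp-cKO and 6.04 and 6.12 CPM in WT, and E2f2, another activator, had 1.40 and 1.27 CPM in Trbp-cKO and 4.46 and 2.91 CPM in WT. Foxm1, a forkhead factor of mitotic genes, had 3.26 and 4.27 CPM in Trbp-cKO and 11.7 and 8.64 CPM in WT. All 3 were lower in both Trbp-cKO libraries than in either WT library, with log2 fold changes of -1.51 ± 0.23, -1.48 ± 0.32 and -1.44 ± 0.22 SE (edgeR adjusted p = 0.00394, 0.0203 and 0.00423). E2f7, a repressive E2F, had 2.02 and 2.62 CPM in Trbp-cKO and 4.98 and 5.44 CPM in WT (-1.16 ± 0.24 SE, edgeR adjusted p = 0.0172), and E2f3 had 17.6 and 18.2 CPM in Trbp-cKO and 28.2 and 23 CPM in WT (-0.52 ± 0.12 SE, edgeR adjusted p = 0.0282). E2f1 overlaps Necab3 and Foxm1 overlaps Tex52. Without WT replicate 1 all 5 falls lost their call (edgeR adjusted p from 0.0632 to 0.245), and without WT replicate 2 all but Foxm1 did (0.0568 to 0.143). E2f3 also ended without Trbp-cKO replicate 1 (0.0803) or 2 (0.0595), E2f7 without Trbp-cKO replicate 1 (0.07) and E2f2 without Trbp-cKO replicate 2 (0.0598), and DESeq2 called none of E2f2, E2f3 and E2f7 (adjusted p from 0.113 to 0.131).

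Promoter windows of 3 of the E2F genes that fell together are shown because they hold the motifs that cell-cycle promoters are known for. Each window runs from 250 bases before to 50 after a RefSeq transcript start (GRCm38.p6), 5′ to 3′ on the gene's strand. Capitals mark exact matches, on either strand, to an E2F motif (GCGGGAA), the cell-cycle homology region (CHR, TTTGAA) and the CCAAT box (CCAAT), none of which overlap here. Of 32851 such windows 4.6% hold the E2F motif, 17.9% the CHR and 37.4% the CCAAT box. The E2f7 window (chr10:110745189-110745488, plus strand) had 2 E2F motifs and 2 CCAAT boxes, the E2f3 window (chr13:29986014-29986313, minus strand) 1 E2F motif, 1 CHR and 3 CCAAT boxes, and the second E2f2 window (chr4:136180532-136180831, plus strand) 1 CHR and 3 CCAAT boxes.
E2f7: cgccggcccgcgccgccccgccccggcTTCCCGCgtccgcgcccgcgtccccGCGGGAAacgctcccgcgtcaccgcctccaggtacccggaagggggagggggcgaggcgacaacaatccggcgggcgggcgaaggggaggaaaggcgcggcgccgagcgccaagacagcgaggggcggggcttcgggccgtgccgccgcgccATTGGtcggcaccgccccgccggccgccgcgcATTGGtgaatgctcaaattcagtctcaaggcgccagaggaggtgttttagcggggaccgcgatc
E2f3: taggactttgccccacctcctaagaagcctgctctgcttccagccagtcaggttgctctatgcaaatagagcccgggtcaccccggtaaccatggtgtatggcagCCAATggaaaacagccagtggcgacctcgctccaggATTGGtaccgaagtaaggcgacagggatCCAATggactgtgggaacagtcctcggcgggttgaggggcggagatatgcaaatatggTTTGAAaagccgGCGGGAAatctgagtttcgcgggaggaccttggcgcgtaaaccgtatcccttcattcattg
E2f2: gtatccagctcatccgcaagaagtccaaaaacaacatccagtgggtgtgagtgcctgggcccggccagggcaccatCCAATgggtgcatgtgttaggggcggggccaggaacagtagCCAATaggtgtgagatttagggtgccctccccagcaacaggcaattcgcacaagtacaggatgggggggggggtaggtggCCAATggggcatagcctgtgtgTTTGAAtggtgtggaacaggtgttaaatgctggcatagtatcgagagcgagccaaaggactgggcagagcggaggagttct
The other E2f2 window, which spans the start of the gene (chr4:136172024-136172323), held 1 CCAAT box. The other E2f3 window, the window of E2f1 and both windows of Tfdp2 held none of the 3 motifs. Motifs also stood in windows of family members that were not called. The E2f8 window held 1 CHR and 1 CCAAT box, and both Lin54 windows held 1 CHR, the second also 1 CCAAT box. The windows of E2f6, Mybl2 and Tfdp1, not called either, held none. A match is a stretch of letters only, and binding was not measured.

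Hopx, an atypical homeodomain protein that binds no DNA itself and partners serum response factor, fell furthest of the called transcription factors. It had 11.2 and 9.81 CPM in Trbp-cKO and 478 and 483 CPM in WT (log2 fold change -5.51 ± 0.09 SE, edgeR adjusted p = 1.26e-09). Its span (chr5:77086986-77115123) overlaps the antisense gene Hopxos. Meox1, a homeobox factor of somites, had 27.0 and 28.7 CPM in Trbp-cKO and 40.3 and 41.2 CPM in WT (-0.55 ± 0.09 SE, edgeR adjusted p = 0.00522). Hif1a, the oxygen-regulated subunit of the hypoxia factor, had 124 and 121 CPM in Trbp-cKO and 153 and 161 CPM in WT (-0.36 ± 0.07 SE, edgeR adjusted p = 0.00979). Its family member Hif3a, which can oppose hypoxia signalling, went the other way, with 14.7 and 13.1 CPM in Trbp-cKO and 8.16 and 8.54 CPM in WT (0.74 ± 0.15 SE, edgeR adjusted p = 0.0174).

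The remaining calls among transcription factors were all rises, apart from 3 further falls when libraries were scaled by total counts. Among them were 3 of 38 tested nuclear receptors (7.89%), 2 of 19 forkhead and 2 of 19 ETS factors (10.5% each), near the 9.38% of all genes, and 4 of 21 KLF, SP and EGR factors (19%). Nr3c2, the mineralocorticoid receptor, had 34.5 and 29.9 CPM in Trbp-cKO and 20.5 and 20.1 CPM in WT (0.66 ± 0.10 SE), and Nr1h3, the oxysterol receptor LXR alpha, had 13.2 and 11.4 CPM in Trbp-cKO and 5.81 and 8.06 CPM in WT (0.83 ± 0.19 SE). Nr1d2, the clock repressor REV-ERB beta, had 156 and 157 CPM in Trbp-cKO and 103 and 116 CPM in WT (0.52 ± 0.07 SE). All 3 were higher in both Trbp-cKO libraries than in either WT library. Klf15, a glucocorticoid-responsive regulator of cardiac metabolism, had 82.3 and 88.8 CPM in Trbp-cKO and 54.1 and 65.5 CPM in WT (0.52 ± 0.10 SE), and Klf4 had 128 and 112 CPM in Trbp-cKO and 90.6 and 77.7 CPM in WT (0.51 ± 0.10 SE). Foxo4, a forkhead factor restrained by insulin signalling, had 99.6 and 100.4 CPM in Trbp-cKO and 70.2 and 68.2 CPM in WT (0.53 ± 0.07 SE). Further rises on the log2 scale were those of Mxi1, a MAX partner that opposes MYC (0.53 ± 0.09 SE), Elf2 (0.39 ± 0.07 SE), Sp1 (0.38 ± 0.07 SE) and Mef2a, a MADS-box factor of muscle (0.32 ± 0.07 SE). Of the 13 genes other than Hopx in these 2 paragraphs, 12 lost their call without WT replicate 1 (all but Foxo4, edgeR adjusted p from 0.0603 to 0.217) and 10 without WT replicate 2 (all but Mxi1, Nr1d2 and Klf15, 0.0524 to 0.156). Nr1h3 and Hif3a also ended in the fit without Trbp-cKO replicate 1 (0.103 and 0.0789) and with DESeq2 (adjusted p = 0.0782 and 0.0773), and Klf15 without Trbp-cKO replicate 2 (0.0505).

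The receptor genes with the largest rises were low in WT. Grin2c, the GluN2C subunit of the NMDA glutamate receptor, best known from the cerebellum, had 7.44 and 10.8 CPM in Trbp-cKO and 0.227 and 0.485 CPM in WT, from 96 and 144 counts against 3 and 5. It was 26.0-fold higher (log2 fold change 4.70 ± 0.38 SE, edgeR adjusted p = 0.000166), and lies at chr11:115249169-115267297. Oprd1, the delta opioid receptor, had 15.0 and 15.5 CPM in Trbp-cKO and 0.906 and 1.07 CPM in WT (3.95 ± 0.21 SE, edgeR adjusted p = 1.00e-05). In both genes the WT libraries were low and the Trbp-cKO libraries far above them. Lpar3, a receptor for lysophosphatidic acid, had 9.93 and 10.5 CPM in Trbp-cKO and 4.46 and 4.46 CPM in WT (1.19 ± 0.17 SE, edgeR adjusted p = 0.00323). Gfra1, the GDNF co-receptor, had 16.9 and 14.7 CPM in Trbp-cKO and 9.82 and 8.74 CPM in WT (0.77 ± 0.16 SE, edgeR adjusted p = 0.0154). Edar, the ectodysplasin receptor, had 2.87 and 1.87 CPM in Trbp-cKO and 0.68 and 0.485 CPM in WT (1.98 ± 0.42 SE, edgeR adjusted p = 0.0193). No library of one genotype overlapped the other in these 5 genes, which the choice required for all but Edar and which is no separate result.

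Of 49 tested receptor tyrosine kinases 3 rose and 1 fell (8.16%, beside 9.38% of all genes), with a median log2 fold change of 0.01. Ghr, the growth hormone receptor, had 287 and 298 CPM in Trbp-cKO and 208 and 218 CPM in WT (0.46 ± 0.07 SE, edgeR adjusted p = 0.00389). Igf1r, a tyrosine kinase that binds IGF-1, had 69.1 and 82.9 CPM in Trbp-cKO and 52.6 and 57.3 CPM in WT (0.47 ± 0.10 SE, edgeR adjusted p = 0.0197). Tek, the tyrosine kinase receptor for angiopoietins in endothelium, was at 0.29 ± 0.07 SE (edgeR adjusted p = 0.0275). Grin2c and Oprd1 held in every fit that left out a library. Lpar3, Gfra1, Edar, Ghr, Igf1r and Tek ended without WT replicate 1 (edgeR adjusted p between 0.0632 and 0.217) and without WT replicate 2 (0.0513 to 0.218), Gfra1, Edar and Tek without Trbp-cKO replicate 1 (0.0654 to 0.104), Igf1r without Trbp-cKO replicate 2 (0.0572), and Edar and Tek with DESeq2 (adjusted p = 0.106 and 0.0973).

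**Figure D3:**
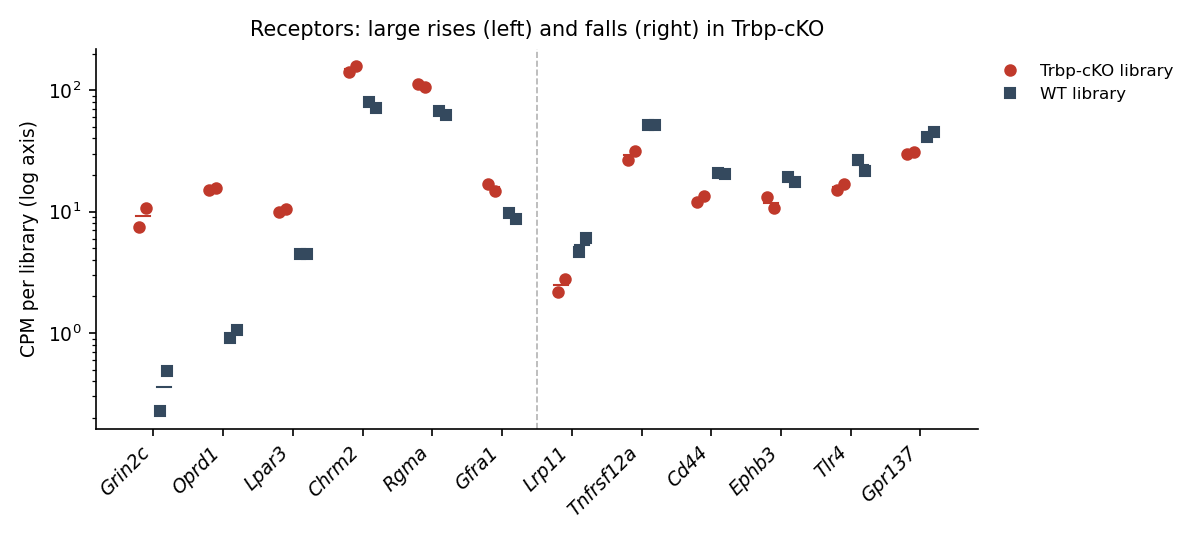
CPM (log axis) in each Trbp-cKO library (red circles) and each WT library (dark squares) for the called receptors of at least 2 CPM on average with the 6 largest rises, left of the dashed line, and the 6 largest falls; short lines are genotype means. Grin2c and Oprd1 average 9.11 and 15.2 CPM in Trbp-cKO and 0.356 and 0.987 CPM in WT, while the furthest of the falls, Lrp11, is 2.13-fold.

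Chrm2 and 3 other genes of the pathway by which the vagus nerve slows the heart rose. Acetylcholine from the vagus nerve acts on the M2 receptor, whose G protein opens potassium channels that slow the heart. Chrm2, which encodes the M2 receptor, had 141 and 158 CPM in Trbp-cKO and 80.0 and 71.6 CPM in WT (0.98 ± 0.08 SE, edgeR adjusted p = 0.000201). Its span overlaps that of the miRNA gene Mir490. Of 10 tested genes of a muscarinic and GIRK channel list, put together after values were seen, 4 rose and none fell (40%, beside 9.38% of all genes). Kcnj5, the GIRK4 channel subunit, had 251 and 257 CPM in Trbp-cKO and 166 and 183 CPM in WT (0.54 ± 0.07 SE, edgeR adjusted p = 0.00219). Gnao1, a G protein alpha subunit, had 31.6 and 29.6 CPM in Trbp-cKO and 17.4 and 21.1 CPM in WT (0.68 ± 0.11 SE, edgeR adjusted p = 0.00575), and Rgs6, which shortens M2 signals, had 27.1 and 34.4 CPM in Trbp-cKO and 20.8 and 19.0 CPM in WT (0.62 ± 0.13 SE, edgeR adjusted p = 0.0189). Kcnj3, the GIRK1 subunit, did not pass, with 25.8 and 25.9 CPM in Trbp-cKO and 34.1 and 29.9 CPM in WT (-0.31 ± 0.10 SE, edgeR adjusted p = 0.0804). These genes are known from atrial muscle, whose marker sum was 929 and 1386 CPM in Trbp-cKO and 737 and 747 CPM in WT. Most of that sum was Pam, with 700 and 748 CPM in Trbp-cKO and 626 and 636 CPM in WT. Nppa had 173 and 578 CPM in Trbp-cKO and 69.0 and 66.5 CPM in WT (2.47 ± 0.88 SE, edgeR adjusted p = 0.307). On the log2 scale the 5 tested atrial markers centred on 0.68 (median), and none was called. The other atrial markers, Myl7, Sln and Bmp10, were too low to test in either genotype. The part of atrial tissue was not tested. Kcnj5, Gnao1 and Rgs6 ended without WT replicate 1 (edgeR adjusted p between 0.077 and 0.129), and Rgs6 without WT replicate 2 (0.191) or Trbp-cKO replicate 2 (0.0676).

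Netrins, repulsive guidance molecules (RGMs) and the receptor they share changed in both directions. Netrins and RGMs bind neogenin, and RGMs are also co-receptors for bone morphogenetic proteins (BMPs). Ntn1, which encodes netrin-1 (chr11:68209364-68386826), had 75.6 and 76.0 CPM in Trbp-cKO and 156 and 150 CPM in WT (-1.01 ± 0.07 SE, edgeR adjusted p = 3.38e-05). Ntn4, netrin-4 of basement membranes, had 38.3 and 53.2 CPM in Trbp-cKO and 23.5 and 22.6 CPM in WT (0.99 ± 0.16 SE, edgeR adjusted p = 0.0159). These netrins thus moved in opposite directions, and the genotypes overlapped in neither. Among the RGMs, Rgma had 113 and 107 CPM in Trbp-cKO and 67.1 and 62.3 CPM in WT (0.77 ± 0.07 SE, edgeR adjusted p = 0.000375), while Hfe2, now called Hjv and known as the iron-sensing hemojuvelin, had 233 and 211 CPM in Trbp-cKO and 293 and 277 CPM in WT (-0.36 ± 0.08 SE, edgeR adjusted p = 0.0175). Neo1, neogenin itself, had 202 and 210 CPM in Trbp-cKO and 153 and 145 CPM in WT (0.47 ± 0.07 SE, edgeR adjusted p = 0.00317). Cdon, a related surface receptor, had 39.3 and 31.4 CPM in Trbp-cKO and 24.8 and 23 CPM in WT (0.56 ± 0.12 SE, edgeR adjusted p = 0.0206). In this list, also put together after values were seen, 4 of 11 tested genes rose and 2 fell (54.5%, beside 9.38% of all genes).

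Of 8 tested BMP receptor genes, Bmpr2, the type II receptor, and Tgfbr3, the co-receptor betaglycan, rose (25%, beside 9.38% of all genes). This list was also made after values were seen. Bmpr2 had 73.9 and 73.7 CPM in Trbp-cKO and 56.4 and 53.1 CPM in WT (0.43 ± 0.07 SE, edgeR adjusted p = 0.00704), and Tgfbr3 had 107 and 115 CPM in Trbp-cKO and 86.1 and 83.3 CPM in WT (0.39 ± 0.07 SE, edgeR adjusted p = 0.00849). Bmpr1a, a type I receptor, was at 0.15 ± 0.07 SE and did not pass (edgeR adjusted p = 0.254). Among the 8 called genes of these 2 paragraphs, Ntn1 and Rgma held without any 1 library, and the other 6 ended without WT replicate 1 (edgeR adjusted p between 0.0628 and 0.203) and without WT replicate 2 (0.0983 to 0.195), Cdon also without Trbp-cKO replicate 1 (0.0718).

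The 11 receptors that fell were between 1.23-fold and 2.13-fold lower. Tnfrsf12a, the TWEAK receptor Fn14, induced in injured muscle, had 26.8 and 31.6 CPM in Trbp-cKO and 51.8 and 51.2 CPM in WT (-0.82 ± 0.10 SE, edgeR adjusted p = 0.00126), and it overlaps Hcfc1r1. Cd44, a hyaluronan receptor, had 12 and 13.4 CPM in Trbp-cKO and 20.8 and 20.6 CPM in WT (-0.70 ± 0.13 SE, edgeR adjusted p = 0.00929). Both genes were lower in either Trbp-cKO library than in either WT library. Lrp11, of the LDL receptor family, had 2.17 and 2.77 CPM in Trbp-cKO and 4.61 and 6.02 CPM in WT (-1.09 ± 0.25 SE, edgeR adjusted p = 0.0275). Ephb3, an ephrin receptor, had 13.1 and 10.6 CPM in Trbp-cKO and 19.1 and 17.4 CPM in WT (-0.62 ± 0.15 SE, edgeR adjusted p = 0.0307), and Tlr4, the endotoxin receptor of innate immunity, had 15.2 and 16.8 CPM in Trbp-cKO and 26.8 and 21.6 CPM in WT (-0.60 ± 0.13 SE, edgeR adjusted p = 0.0218). Here too the genotypes did not overlap. Gpr137, an orphan receptor of lysosomes that overlaps Bad, had 29.7 and 30.7 CPM in Trbp-cKO and 41.2 and 44.9 CPM in WT (-0.51 ± 0.09 SE, edgeR adjusted p = 0.00821). Further falls on the log2 scale were those of the integrin subunits Itga9 (-0.48 ± 0.08 SE) and Itga5 (-0.30 ± 0.08 SE) and of Cxcr7, now Ackr3, a scavenger of the chemokine CXCL12 (-0.49 ± 0.10 SE). All but Tnfrsf12a ended without WT replicate 1 (edgeR adjusted p between 0.0603 and 0.296), and all but Tnfrsf12a and Cxcr7 without WT replicate 2 (0.0558 to 0.211). Lrp11, Tlr4 and Itga5 ended without Trbp-cKO replicate 1 (0.0723 to 0.105), Ephb3 and Cxcr7 without Trbp-cKO replicate 2 (0.107 and 0.112), Lrp11, Ephb3, Tlr4 and Itga5 with DESeq2 (adjusted p from 0.0689 to 0.157), and Itga5 with counts summed over transcripts (edgeR adjusted p = 0.0591).

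Among 259 tested solute carriers 20 rose and 10 fell, or 11.6%, beside 9.38% of all genes. Several related carriers moved in opposite directions. Slc22a3, the organic cation transporter OCT3, which clears catecholamines outside neurons, had 5.97 and 7.56 CPM in Trbp-cKO and 15.6 and 17.9 CPM in WT (log2 fold change -1.30 ± 0.17 SE, edgeR adjusted p = 0.00209). Of the glutamate carriers, Slc17a7, the vesicular transporter VGLUT1, had 32.6 and 25.8 CPM in Trbp-cKO and 11.3 and 12.4 CPM in WT (1.30 ± 0.14 SE, edgeR adjusted p = 0.000712), while Slc1a1, the uptake carrier EAAT3, had 1.47 and 2.99 CPM in Trbp-cKO and 9.89 and 9.12 CPM in WT (-2.08 ± 0.28 SE, edgeR adjusted p = 0.00337). In each of these 3 genes the genotypes did not overlap. Of the copper carriers, Slc31a2 (CTR2) was at 0.39 ± 0.09 SE and Slc31a1, the uptake carrier CTR1, at -0.39 ± 0.07 SE (edgeR adjusted p = 0.0262 and 0.00841). Of the neutral amino acid carriers, Slc38a3 had 120.2 and 129.6 CPM in Trbp-cKO and 73.4 and 56.6 CPM in WT (0.94 ± 0.12 SE, edgeR adjusted p = 0.00777), Slc38a2 was at 0.57 ± 0.07 SE (edgeR adjusted p = 0.00149) and Slc38a4 at -0.33 ± 0.08 SE (edgeR adjusted p = 0.0356).

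Mfsd7c, now Flvcr2, a choline and heme carrier, had 20.0 and 15.0 CPM in Trbp-cKO and 6.19 and 5.14 CPM in WT (1.62 ± 0.19 SE, edgeR adjusted p = 0.00119). Its levels in Trbp-cKO were above both WT libraries. Slc16a10, an aromatic amino acid carrier, had 55.1 and 54.6 CPM in Trbp-cKO and 36.0 and 31.3 CPM in WT (0.70 ± 0.09 SE, edgeR adjusted p = 0.00202). Of the organic anion carriers, Slco3a1 had 101 and 103 CPM in Trbp-cKO and 60.1 and 52.1 CPM in WT (0.86 ± 0.08 SE, edgeR adjusted p = 0.000377), and Slco5a1 had 11.5 and 13.2 CPM in Trbp-cKO and 29.2 and 24.7 CPM in WT (-1.13 ± 0.13 SE, edgeR adjusted p = 0.00114). Slc2a4, the insulin-responsive glucose carrier GLUT4, was at 0.52 ± 0.07 SE (edgeR adjusted p = 0.00187). Mfsd7c, Slc17a7, Slc22a3, Slc16a10, Slco3a1 and Slco5a1 held in all 11 alternatives. Slc1a1, Slc38a4, Slc31a1, Slc31a2 and Slc2a4 ended without WT replicate 1 (edgeR adjusted p between 0.063 and 0.23) and, with Slc38a2, without WT replicate 2 (0.0513 to 0.134), Slc38a3 and Slc31a2 without Trbp-cKO replicate 1 (0.0661 and 0.0569), and Slc38a3, Slc38a4 and Slc31a2 without Trbp-cKO replicate 2 (0.0627 to 0.113). DESeq2 called neither Slc38a4 nor Slc31a2 (adjusted p = 0.189 and 0.221), Slc38a4 ended with counts summed over transcripts (edgeR adjusted p = 0.0538), and Slc1a1 was at -2.68 without Trbp-cKO replicate 2 (edgeR adjusted p = 0.000318).

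Of 36 tested ABC transporters, which carry lipids, drugs and other cargo, 5 rose and none fell (13.9%, beside 9.38% of all genes), or 5 rose and 1 fell with libraries scaled by total counts. Abca1, which exports cholesterol to apolipoproteins, had 115 and 119 CPM in Trbp-cKO and 75.9 and 69.5 CPM in WT (0.69 ± 0.07 SE, edgeR adjusted p = 0.000632). Abca12, a lipid carrier best known from skin, had 12.4 and 11.1 CPM in Trbp-cKO and 5.44 and 4.56 CPM in WT (1.22 ± 0.18 SE, edgeR adjusted p = 0.00332), and Abcd2, a peroxisomal fatty acid importer, had 34.4 and 33.6 CPM in Trbp-cKO and 20.5 and 17.8 CPM in WT (0.82 ± 0.10 SE, edgeR adjusted p = 0.00126). Of 31 tested ion pump genes 4 rose and 3 fell (22.6%), and the 3 that fell are of the phospholipid flippase type, which moves lipids to the inner leaflet of membranes. Of 11 tested genes of that type, listed after values were seen, the remaining 8 did not pass. Atp8a2 had 1.55 and 1.72 CPM in Trbp-cKO and 6.04 and 6.70 CPM in WT (-1.95 ± 0.24 SE, edgeR adjusted p = 0.00131), Atp10d had 14.0 and 15.5 CPM in Trbp-cKO and 37.1 and 33.6 CPM in WT (-1.26 ± 0.10 SE, edgeR adjusted p = 0.000166), and Atp8a1 was at -0.41 ± 0.09 SE (edgeR adjusted p = 0.0191). Fabp7, the fatty acid binding protein of brain, was low throughout, with 3 and 4 counts in Trbp-cKO and 19 and 11 counts in WT (-2.21 ± 0.54 SE, edgeR adjusted p = 0.0329). Atp8a1 and Fabp7 ended without WT replicate 1, WT replicate 2 or Trbp-cKO replicate 1 and with DESeq2 (adjusted p from 0.0569 to 0.274), Fabp7 also when Trbp-cKO replicate 2 was left out (edgeR adjusted p = 0.102) and Abca12 without WT replicate 2 (0.0545).

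**Figure D4:**
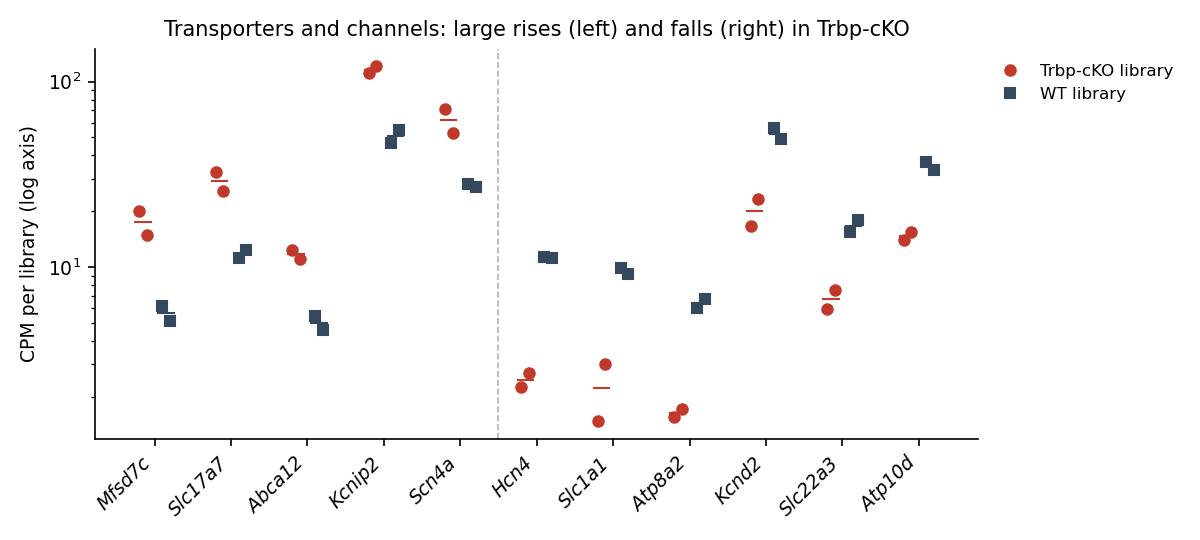
CPM (log axis) in each Trbp-cKO library (red circles) and each WT library (dark squares) for 5 called transporters and channels of at least 2 CPM on average with large rises, left of the dashed line, and the 6 with the largest falls; short lines are genotype means. Hcn4 averages 2.47 CPM in Trbp-cKO and 11.3 CPM in WT, and Kcnip2 116 CPM in Trbp-cKO and 50.7 CPM in WT.

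Potassium channel genes were called in 11 of 53 tested (20.8%), 8 higher and 3 lower, and sodium and calcium channel genes in 9 of 47 (19.1%), 7 higher and 2 lower, beside 9.38% of all genes. Hcn4 encodes a channel of the pacemaker current. Hcn4 (chr9:58822949-58863175) had 2.25 and 2.69 CPM in Trbp-cKO and 11.3 and 11.3 CPM in WT (-2.19 ± 0.19 SE, edgeR adjusted p = 0.000236). The transient outward current, which shapes early repolarisation, is carried by Kcnd2 and Kcnd3 pores with the Kcnip2 subunit. Kcnd3 had 32.1 and 32.2 CPM in Trbp-cKO and 19.7 and 16.1 CPM in WT (0.84 ± 0.11 SE, edgeR adjusted p = 0.00202), and Kcnip2 had 112 and 121 CPM in Trbp-cKO and 46.8 and 54.6 CPM in WT (1.20 ± 0.09 SE, edgeR adjusted p = 8.57e-05). Kcnd2 moved the other way, with 16.7 and 23.3 CPM in Trbp-cKO and 56 and 48.8 CPM in WT (-1.39 ± 0.16 SE, edgeR adjusted p = 0.00503), as did Kcne1, with 71.0 and 84.1 CPM in Trbp-cKO and 140 and 180.2 CPM in WT (-1.04 ± 0.16 SE, edgeR adjusted p = 0.0239).

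Scn4a, the sodium channel of skeletal muscle, had 71.0 and 52.8 CPM in Trbp-cKO and 28.0 and 27.1 CPM in WT (1.17 ± 0.15 SE, edgeR adjusted p = 0.00539). Of the 10 skeletal muscle markers 3 were expressed highly enough to test, none passed, and they went different ways. Ckmt2, a mitochondrial creatine kinase that heart also expresses, made up most of their sum (2168 and 1940 CPM in Trbp-cKO, 2290 and 2476 CPM in WT), with 2002 and 1780 CPM in Trbp-cKO and 2030 and 2021 CPM in WT. Acta1, skeletal actin, had 78.6 and 107 CPM in Trbp-cKO and 254 and 452 CPM in WT (edgeR adjusted p = 0.189). Tnni2, troponin I of fast skeletal fibres, had 86.6 and 50.8 CPM in Trbp-cKO and 5.14 and 2.43 CPM in WT (4.13 ± 0.58 SE, edgeR adjusted p = 0.081). The remaining 7 markers together stood at 1.32 and 1.8 CPM in Trbp-cKO and 1.13 and 1.07 CPM in WT, and the part of skeletal muscle in the rise of Scn4a was not tested. Cacna1g, a T-type calcium channel, had 194 and 179 CPM in Trbp-cKO and 98.6 and 88.8 CPM in WT (0.99 ± 0.08 SE, edgeR adjusted p = 0.000101). Of the 7 channel genes named, Hcn4, Kcnip2, Kcnd3 and Cacna1g held in all 11 alternatives. Scn4a ended without WT replicate 1 (edgeR adjusted p = 0.0786) or 2 (0.0825), Kcnd2 without WT replicate 1 (0.0533), and Kcne1 without Trbp-cKO replicate 1 (0.182) or 2 (0.129).

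The sodium pump expels sodium and takes up potassium. Atp1b2, a beta subunit of the pump, had 84.0 and 93.3 CPM in Trbp-cKO and 49.8 and 52.1 CPM in WT (0.80 ± 0.08 SE, edgeR adjusted p = 0.000461), and Fxyd6, a regulator, had 64.7 and 66.8 CPM in Trbp-cKO and 36.2 and 38.7 CPM in WT (0.81 ± 0.08 SE, edgeR adjusted p = 0.000484). Both were higher in each Trbp-cKO library than in either WT library, and both calls held in all 11 alternatives. Of the water channels, Aqp4 fell and Aqp1 rose, with Aqp4 at 32.7 and 38.2 CPM in Trbp-cKO and 69.9 and 59.4 CPM in WT (-0.87 ± 0.11 SE, edgeR adjusted p = 0.00202), and Aqp1 at 915 and 819 CPM in Trbp-cKO and 682 and 633 CPM in WT (0.40 ± 0.08 SE, edgeR adjusted p = 0.0134). The call of Aqp1 ended without WT replicate 1 (edgeR adjusted p = 0.127) or 2 (0.21), while that of Aqp4 held in all 11 alternatives.

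Secreted proteins rose and fell in near-equal numbers, 28 and 25, or 23 and 32 with total-count scaling. Thsd4, a thrombospondin-repeat protein of microfibrils, had 50.3 and 59.5 CPM in Trbp-cKO and 18.4 and 17.1 CPM in WT (log2 fold change 1.63 ± 0.11 SE, edgeR adjusted p = 4.41e-05). Scgb1c1, a secretoglobin, had 11.2 and 15.3 CPM in Trbp-cKO and 3.55 and 3.98 CPM in WT (1.82 ± 0.21 SE, edgeR adjusted p = 0.000959). Both were higher in either Trbp-cKO library than in either WT library. Among growth factors, Hbegf, a ligand of EGF receptors, had 49.9 and 52.8 CPM in Trbp-cKO and 30.1 and 32.7 CPM in WT (0.71 ± 0.09 SE, edgeR adjusted p = 0.00151), and Fgf18 had 5.58 and 5.46 CPM in Trbp-cKO and 3.02 and 2.72 CPM in WT (0.94 ± 0.22 SE, edgeR adjusted p = 0.0263). Podn, a small leucine-rich proteoglycan, had 27.5 and 34.1 CPM in Trbp-cKO and 17.5 and 16.3 CPM in WT (0.86 ± 0.12 SE, edgeR adjusted p = 0.00317), and Adamts19, a metalloprotease, had 11.9 and 14.1 CPM in Trbp-cKO and 7.33 and 7.77 CPM in WT (0.79 ± 0.16 SE, edgeR adjusted p = 0.0168). The genotypes did not overlap in any of these 6 genes, which the choice required for all but Hbegf and which is no separate result. Slit3, a guidance cue, was at 0.79 ± 0.15 SE, and Ctgf, now Ccn2, a matrix-bound modulator, at 0.56 ± 0.09 SE (edgeR adjusted p = 0.0129 and 0.00581). Fgf18, Podn, Adamts19, Slit3 and Ctgf ended without WT replicate 1 (edgeR adjusted p between 0.0601 and 0.153) and without WT replicate 2 (0.0513 to 0.181). Fgf18 and Slit3 ended without Trbp-cKO replicate 1 (0.0756 and 0.0615), Fgf18 and Adamts19 without Trbp-cKO replicate 2 (0.0674 and 0.0819) and with DESeq2 (adjusted p = 0.235 and 0.0671).

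**Figure D5:**
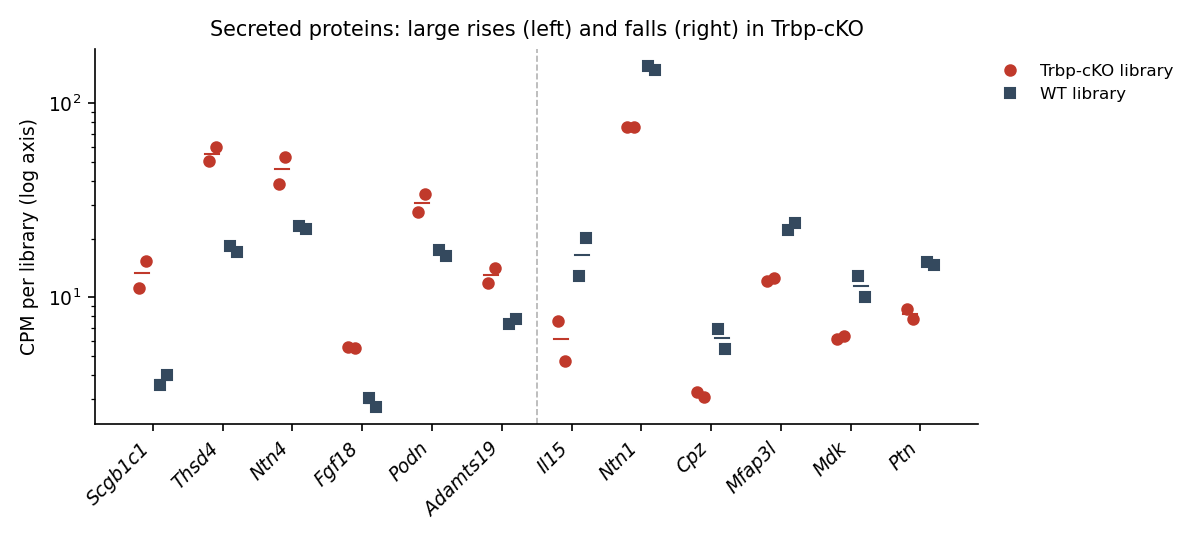
CPM (log axis) in each Trbp-cKO library (red circles) and each WT library (dark squares) for the called secreted proteins of at least 2 CPM on average with the 6 largest rises, left of the dashed line, and the 6 largest falls; short lines are genotype means. Thsd4 averages 54.9 CPM in Trbp-cKO and 17.8 CPM in WT, Ntn1 75.8 CPM in Trbp-cKO and 153 CPM in WT.

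The falls included both heparin-binding growth factors of the midkine family. Mdk, midkine, which overlaps Chrm4, had 6.13 and 6.36 CPM in Trbp-cKO and 12.8 and 10.0 CPM in WT (-0.88 ± 0.18 SE, edgeR adjusted p = 0.0167). Ptn, pleiotrophin, had 8.69 and 7.71 CPM in Trbp-cKO and 15.2 and 14.8 CPM in WT (-0.87 ± 0.15 SE, edgeR adjusted p = 0.00781). Wnt5a, a ligand of non-canonical Wnt signalling, had 10.2 and 8.23 CPM in Trbp-cKO and 15.6 and 15.0 CPM in WT (-0.73 ± 0.16 SE, edgeR adjusted p = 0.0217). These 3 ligands were lower in both Trbp-cKO libraries than in either WT library. Il15, a cytokine of lymphocytes, had 7.52 and 4.72 CPM in Trbp-cKO and 12.8 and 20.3 CPM in WT (-1.43 ± 0.31 SE, edgeR adjusted p = 0.0484), and Cpz, a carboxypeptidase, had 3.26 and 3.07 CPM in Trbp-cKO and 6.87 and 5.44 CPM in WT (-0.97 ± 0.22 SE, edgeR adjusted p = 0.0247). Mfap3l, sorted here by its family name though it encodes a membrane protein, had 12.1 and 12.6 CPM in Trbp-cKO and 22.4 and 24.1 CPM in WT (-0.91 ± 0.12 SE, edgeR adjusted p = 0.00219). Gdf15 and Lgi1 were at low levels and fell further. Gdf15, a stress-induced ligand, had 0.931 and 0.749 CPM in Trbp-cKO and 3.02 and 2.04 CPM in WT (-1.60 ± 0.37 SE, edgeR adjusted p = 0.0278). Lgi1, a synaptic organiser, had 3 and 5 counts in Trbp-cKO and 32 and 43 counts in WT (-3.37 ± 0.48 SE, edgeR adjusted p = 0.00317). Igfbp7, an IGF-binding protein that overlaps Polr2b, was at -0.45 ± 0.10 SE (edgeR adjusted p = 0.0372). Mfap3l held without any 1 library. Mdk, Ptn, Cpz, Wnt5a, Gdf15 and Igfbp7 ended without WT replicate 1 (edgeR adjusted p between 0.0854 and 0.261) and, with Il15 and Lgi1, without WT replicate 2 (0.0508 to 0.233), Mdk, Cpz, Gdf15 and Igfbp7 without Trbp-cKO replicate 1 (0.0569 to 0.0836), and Il15, Cpz, Wnt5a and Gdf15 without Trbp-cKO replicate 2 (0.0772 to 0.114). DESeq2 did not call Mdk, Cpz, Wnt5a or Gdf15 (adjusted p from 0.0591 to 0.193), and Il15 ended with counts summed over transcripts (edgeR adjusted p = 0.113).

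Matrix genes moved in both directions. Of 34 tested collagen genes 5 fell and none rose (14.7%), with a median log2 fold change of -0.19, while of 80 tested non-collagen matrix genes 6 rose and 7 fell (16.2%), with a median of 0.01, beside 9.38% called of all genes. With libraries scaled by total counts, 6 collagen genes fell and none rose, and 5 non-collagen matrix genes rose and 9 fell. The largest collagen fall was that of Col1a1, with 213 and 260.3 CPM in Trbp-cKO and 393 and 341 CPM in WT (-0.63 ± 0.11 SE, edgeR adjusted p = 0.0174), and Col1a2 had 295 and 334 CPM in Trbp-cKO and 496 and 426 CPM in WT (-0.55 ± 0.10 SE, edgeR adjusted p = 0.00905). Fbn2, fibrillin-2 of young elastic tissue, had 17.8 and 22.9 CPM in Trbp-cKO and 36.2 and 31.7 CPM in WT (-0.74 ± 0.13 SE, edgeR adjusted p = 0.0115). Mfap4 (-0.57 ± 0.12 SE), Postn, periostin of fibroblasts (-0.56 ± 0.12 SE), and Bgn, the proteoglycan biglycan (-0.35 ± 0.08 SE), also fell on the log2 scale. Fbln1, fibulin-1, rose, with 69.6 and 74.0 CPM in Trbp-cKO and 44.1 and 54.7 CPM in WT (0.54 ± 0.11 SE, edgeR adjusted p = 0.0157), as did Thbs2, thrombospondin-2, at 0.40 ± 0.07 SE. Of the inhibitors of matrix metalloproteases, Timp4 rose by 0.55 ± 0.12 SE and Timp3 by 0.32 ± 0.07 SE on the log2 scale. Of the fibroblast marker sums given above Gsn, gelsolin, held 927 and 947 CPM in Trbp-cKO and 543 and 648 CPM in WT. The other 9 markers, none of them called, summed to 1650 and 1882 CPM in Trbp-cKO and to 1842 and 1784 CPM in WT, and the part of fibroblast content in the matrix values was not tested. The 10 matrix genes named here ended without WT replicate 1 (edgeR adjusted p between 0.111 and 0.219), and all but Col1a2, Mfap4 and Fbln1 ended without WT replicate 2 (0.057 to 0.198). Mfap4 and Timp4 ended without Trbp-cKO replicate 1 (0.082 and 0.0889), Fbln1 without Trbp-cKO replicate 2 (0.062), and Timp4 with DESeq2 (adjusted p = 0.0516).

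Across the 4 classes, 29 calls held in all 11 alternatives tried. These were 4 of 38 transcription factors (Hopx, Tfdp2, Hlf and Sox6), 4 of 40 receptors (Tnfrsf12a, Rgma, Chrm2 and Oprd1), 16 of 68 transporters and channels (among them Hcn4, Kcnip2, Kcnd3, Cacna1g, Abca1, Abcd2 and Atp10d) and 5 of 53 secreted proteins (Ntn1, Mfap3l, Hbegf, Thsd4 and Scgb1c1), beside 147 of 1277 over all genes. One alternative tested only genes with a mean of at least 5 CPM, which leaves out low genes such as Grin2c. In the authors' deposited table, which gives a q-value per transcript, 59 of 61 genes picked by the naming rule were under 0.05. The exceptions were Elf2 and Sp1. These q-values come from the same libraries, and all genes but Tarbp2 were picked because they were called. The count is therefore no separate support.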

How the data were processed

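The deposited table gives raw read counts per RefSeq transcript for 2 Trbp-cKO and 2 WT ventricle libraries, made by the authors from libraries of a TruSeq RNA kit, per the labels' protocols. Tools named in the submitters' processing notes are Bowtie 0.12.9, SAMtools 0.1.16, cutadapt 0.9.5, CASAVA 1.8.2 and edgeR, with build mm10. The counting step, strand use and treatment of multi-mapping reads are, in the sources used here, not given, and reads shared between transcripts or paralogs could shift counts. The authors also deposited a ratio of their averaged normalized values with p-values and q-values for each transcript, of which the q-values alone are used, as a count.

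Of 30635 transcript rows 30020 matched RefSeq (GRCm38.p6), 3903 blank and 39 date-like symbols were named through the accession, and 110 rows that stayed unnamed, 0.117% to 0.14% of counts, were left out. The row with the highest total stood for each of 23334 genes, of which 4293 had more than 1 row. Libraries then held 10135841 to 13520927 counts. Genes passing filterByExpr (13607) were fitted with edgeR 4.0.16 in R 4.3.3 (TMM scaling, factors 0.9823 to 1.017, robust quasi-likelihood test, common biological coefficient of variation 0.103), with genotype as the only term and no replicate block. The procedure was tested on simulated data. Calls had a Benjamini-Hochberg adjusted p under 0.05. The 11 alternatives were DESeq2 1.42.0, 2 other scalings, 2 other filters, counts summed over transcripts, a replicate block and leaving out each library.

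Named genes were Tarbp2, the 6 largest called rises and falls per class whose mean reached 2 CPM and whose genotypes did not overlap, outside sarcomere and proliferation lists, and, per family of at least 5 tested members without one, the call with the smallest p; some of them are not reported here. The classes, families and lists were chosen with earlier results of these data known. Promoter windows are RefSeq's, GRCm38.p6, and 45 of the 61 named genes had one.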

Additional observations from a re-analysis of the deposited data

How the results depend on the processing

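No result for a named gene reversed under any of the 11 alternatives. Leaving out 1 library at a time gave 126 to 685 higher and 125 to 488 lower genes, 8 to 45 transcription factors, 7 to 46 receptors, 23 to 65 transporters and channels and 10 to 67 secreted proteins, the low ends without a WT library; the cause was not tested. DESeq2 called 450 genes higher and 318 lower, against 705 and 572 with edgeR, and 707 of the 1277 edgeR calls were among them. The other scalings, filters and summed transcripts kept all these counts within 1.5 times. Of 61 named genes, 35 and 33 lost their call in the fits lacking WT replicate 1 and 2, 11 and 8 in those lacking Trbp-cKO replicate 1 and 2, 12 with DESeq2 and 1 with summed transcripts. Replicate numbers were taken as numbers only, since the labels give them no shared animal or day. Deviations of same-numbered libraries nevertheless correlated at 0.227 over 10850 genes, and what such libraries may share was not tested. With the replicate number as a block, 549 genes were higher and 439 lower, with 37 transcription factors, 36 receptors, 63 transporters and 47 secreted proteins called. These were in part other genes, since 898 of the 1277 main calls were among them. By class, 29 of 38 transcription factors, 31 of 40 receptors, 54 of 68 transporters and 39 of 53 secreted proteins were called again. Of the 61 named genes, 6 lost their call. Of 113 called genes described under Results, 14 lost their call with the block, namely Bcl11b, Tbx18, E2f3, Nr1h3, Tek, Tlr4, Itga5, Fabp7, Fgf18, Il15, Col1a1, Postn, Mfap4 and Timp4 (edgeR adjusted p from 0.0517 to 0.121). Among the genes named under Other observations, Per2, Fmo1 and Fmo2 also did (edgeR adjusted p = 0.0575, 0.0807 and 0.0579). With 2 libraries per genotype, changes of genes under about 2 CPM rest on few counts.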

Other observations

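Of 21 tested clock and PAR bZIP genes, listed after values were seen, 5 rose and none fell (23.8%, beside 9.38% of all tested genes). Beside Hlf and Nr1d2, Per3, a period gene, had 95.8 and 102 CPM in Trbp-cKO and 69.8 and 75.4 CPM in WT (log2 fold change 0.45, edgeR adjusted p = 0.00574). Tef, a PAR bZIP factor like Hlf, had 227 and 255 CPM in Trbp-cKO and 175 and 197 CPM in WT (0.37, edgeR adjusted p = 0.0268), and Per2 had 47.5 and 49.5 CPM in Trbp-cKO and 38.1 and 39.7 CPM in WT (0.32, edgeR adjusted p = 0.0418). The other 16 did not pass. Arntl (-0.02) and Clock (-0.11), which drive the clock, were among them, as were its targets Dbp (0.16), Nr1d1 (0.08), Per1 (0.33), Bhlhe40 (-0.47) and Bhlhe41 (-0.47). The hour of collection is not given in the labels, and the part of it in these values was not tested. Of the 5 rises, that of Per2 ended in 9 of the 11 alternatives (adjusted p from 0.054 to 0.271), among them total-count scaling, DESeq2 and each fit without 1 library. Tef ended without either WT library or Trbp-cKO replicate 2 (edgeR adjusted p from 0.0681 to 0.269), Per3 without either WT library (0.112 and 0.0614) and Nr1d2 without WT replicate 1 (0.0807), while Hlf held.

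Of 44 tested glutathione and xenobiotic enzymes, also listed after values were seen, 9 rose and 2 fell (25%, beside 9.38% of all genes). Gpx3, the secreted glutathione peroxidase, had 263 and 319 CPM in Trbp-cKO and 139 and 127 CPM in WT (1.13 ± 0.10 SE, edgeR adjusted p = 0.000786). Gstm1, a glutathione transferase of the mu class, had 69.2 and 72.0 CPM in Trbp-cKO and 37.2 and 40.4 CPM in WT (0.86 ± 0.08 SE, edgeR adjusted p = 0.000367), though mu-class genes are near-identical copies whose reads counting could split. Gsto1, of the omega class, fell, with 45.2 and 46.3 CPM in Trbp-cKO and 89.7 and 87.1 CPM in WT (-0.95 ± 0.07 SE, edgeR adjusted p = 8.57e-05). These 3 genes and Gstm2 held without any 1 library, while 7 of the 11 calls (Gstm7, Gstt1, Cyp4b1, Cyp3a13, Cyp2d22, Fmo1 and Fmo2) ended in at least 1 such fit (edgeR adjusted p from 0.0556 to 0.263).

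Of 14 tested genes of retinoid handling, again listed after values were seen, 2 rose and none fell (14.3%, beside 9.38% of all tested genes). Of these calls, 1 rests on both WT libraries. Cyp26b1, which breaks retinoic acid down, had 14.1 and 11.8 CPM in Trbp-cKO and 4.68 and 4.85 CPM in WT (1.44 ± 0.18 SE, edgeR adjusted p = 0.00135). Lrat, which stores retinol as esters, had 7.29 and 9.28 CPM in Trbp-cKO and 3.10 and 3.79 CPM in WT (1.28 ± 0.21 SE, edgeR adjusted p = 0.00645), a call that ended without WT replicate 1 (0.109) or 2 (0.0616). Dbh, the noradrenaline-making enzyme of sympathetic neurons, had 18.3 and 13.5 CPM in Trbp-cKO and 7.93 and 7.77 CPM in WT (1.02 ± 0.18 SE, edgeR adjusted p = 0.00841), while Th, which acts before it, was at 0 in all 4 libraries.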
